A study of Mus musculus with 4 samples.

Results

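NANOG occupancy was described at the 2 loci that encode its main partner factors, Pou5f1 (the gene for OCT4) and Sox2. The members were all windows of 351 bp, each centred on the summit of a NANOG peak, whose centre lay on chromosome 17 from 35406000 to 35611000 or on chromosome 3 from 34550000 to 34780000 (GRCm38/mm10). The choice used position alone. It gave 8 windows at Pou5f1 and 11 at Sox2, or 19 of the 21066 windows measured. All 19 reached 0.9 RPKM in at least one condition, the limit used in the study to call a window bound, and so belonged to the 16608 bound windows. RPKM divides the reads of a window by its length and by the depth of the library, so levels can be compared between windows.

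The windows came from NANOG chromatin immunoprecipitation and sequencing (ChIP-seq) in ZHBT-O4AID mouse embryonic stem cells (ESCs) of 129SV background. In this line no endogenous OCT4 is made (Oct4-/-), a TetOFF Oct4 transgene is kept silent, and the CAG promoter drives both Oct4AID, an OCT4 fusion carrying an auxin-inducible degron, and Tir1, the adaptor through which auxin sends that fusion for degradation. Cells of both groups were grown in N2B27 with PD03, Chiron and mLIF and with doxycycline at 1 μg/ml, and 2 libraries came from uninduced cells and 2 from cells given 500 μM indole-3-acetic acid (IAA), the auxin, for 1.5 h. The comparison asks what happens to NANOG on these loci as OCT4 is removed. Each replicate was a separate immunoprecipitation, so that the p-values rest on the spread between such libraries. For single windows that spread was a trend fitted over all bound windows, and a window's own replicates had no further weight.

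OCT4 and SOX2 bind DNA side by side on a composite of an octamer and a SOX motif, and together with NANOG they occupy the enhancers of one another's genes. Pou5f1 is controlled in ESCs by a distal and a proximal enhancer upstream of its promoter, of which the distal one is the more active in naive cells. Sox2 lies within the long non-coding RNA gene Sox2ot and depends in ESCs on a distal control region (DCR) far downstream.

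Windows are named here by the distance of their centre from the transcript start, negative upstream and positive downstream. Sequences are shown for the windows on which the results turn: the strongest of each locus (Pou5f1 -1.8 kb and Sox2 +95.1 kb), the 2 windows that passed the test for a rise (Pou5f1 -15.4 kb and Sox2 +41.4 kb) and 2 windows of the Sox2 DCR. Each is the plus strand of RefSeq GRCm38.p6, given as the first 300 bases of the window for Pou5f1 -1.8 kb and as the central 201 bases for the others. Capitals mark matches on either strand to 4 motifs, namely the octamer ATGCAAAT, the SOX site CATTGT, the OCT-SOX composite TTGTNATGC and the NANOG core TAATGG. A SOX site followed by NATGC also holds the composite, so that these motifs can overlap.
Pou5f1 -1.8 kb (chr17:35504036-35504335): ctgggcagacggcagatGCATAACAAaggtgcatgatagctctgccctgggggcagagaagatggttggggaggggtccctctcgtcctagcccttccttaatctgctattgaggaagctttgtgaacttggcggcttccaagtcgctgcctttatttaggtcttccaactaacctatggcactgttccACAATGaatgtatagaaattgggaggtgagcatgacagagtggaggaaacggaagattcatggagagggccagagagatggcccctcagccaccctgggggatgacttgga
Pou5f1 -15.4 kb (chr17:35490471-35490671): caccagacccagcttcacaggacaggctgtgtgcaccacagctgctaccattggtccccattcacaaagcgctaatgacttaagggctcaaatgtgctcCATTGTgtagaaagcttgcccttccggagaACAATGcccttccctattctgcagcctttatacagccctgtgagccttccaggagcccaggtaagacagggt
Sox2 +41.4 kb (chr3:34691709-34691909): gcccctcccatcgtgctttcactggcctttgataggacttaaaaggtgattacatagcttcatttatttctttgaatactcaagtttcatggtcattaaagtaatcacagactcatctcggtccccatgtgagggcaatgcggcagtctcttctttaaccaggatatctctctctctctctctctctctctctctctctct
Sox2 +95.1 kb (chr3:34745392-34745592): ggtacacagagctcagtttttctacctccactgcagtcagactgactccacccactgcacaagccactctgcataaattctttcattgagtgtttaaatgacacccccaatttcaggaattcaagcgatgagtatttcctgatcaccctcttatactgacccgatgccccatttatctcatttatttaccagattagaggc
Sox2 +106.5 kb (chr3:34756786-34756986): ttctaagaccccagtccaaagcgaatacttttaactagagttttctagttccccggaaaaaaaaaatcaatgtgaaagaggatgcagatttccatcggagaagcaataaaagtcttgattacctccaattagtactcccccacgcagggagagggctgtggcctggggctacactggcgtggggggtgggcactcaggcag
Sox2 +107.7 kb (chr3:34757984-34758184): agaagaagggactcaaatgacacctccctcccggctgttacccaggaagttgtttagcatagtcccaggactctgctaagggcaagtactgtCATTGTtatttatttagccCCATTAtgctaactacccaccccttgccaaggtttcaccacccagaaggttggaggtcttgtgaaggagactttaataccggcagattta

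The first of these sequences is the region of the Pou5f1 distal enhancer. Both primers with which the study assayed the Oct4 distal enhancer by ChIP-qPCR matched it, at chr17:35504053-35504193, and no other member held the pair. The window held the composite on the minus strand (printed as GCATAACAA) from its base 18, which is position -158 counted from the window centre, and a SOX site from position 14. The composite was found in 3.38% of all bound windows and in 10.5% of those with an OCT4 site, and in no other member. The octamer, present in 2.96% of bound windows, was found in none of the 19.

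SOX sites were found in 4 of 8 Pou5f1 windows and in 2 of 11 Sox2 windows, beside 37.0% of all bound windows. Pou5f1 -15.4 kb held 3 of them, from positions -1, 29 and 147, the last of them beyond the stretch printed. The NANOG core, found in 20.9% of bound windows, was present in Pou5f1 +57.9 kb, Sox2 -91.1 kb and Sox2 +107.7 kb. In the last of these, within the DCR, the SOX site started at position -8 and the NANOG core at position 11. Sox2 +95.1 kb, Sox2 +106.5 kb and Sox2 +41.4 kb held no match to any of the 4, which says only that these letters are not in these windows.

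The libraries held 5406307 to 19634763 reads, and 1 read was worth 0.346 and 0.244 RPKM in uninduced replicates 1 and 2 and 0.145 and 0.527 RPKM in IAA replicates 1 and 2. The share of reads in bound windows was 1.60% and 2.28% before and 3.05% and 3.24% after IAA, and no spike-in scaled these values, so a rise of RPKM at a window is read below against the rise over all bound windows. That rise had a median of 0.76 on the log2 scale, and of 0.06 once each library was centred on its own median over bound windows.

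The Pou5f1 interval held 3.90 and the Sox2 interval 4.78 bound windows per 100 kb, beside 0.609 over the 21 chromosomes that held windows. Such density was not particular to them. Within 100 kb of the other pluripotency genes listed below, bound windows numbered from 0 (Nr0b1) to 11 (Tbx3), with 8 each for Pou5f1 and Sox2. An OCT4 site within 1 kb, as flagged by the authors from published OCT4 ChIP-seq, accompanied 2 of 8 Pou5f1 windows and 8 of 11 Sox2 windows, against 23.7% of all bound windows. The active enhancer class (near p300 and on H3K27 acetylation) took in 5 Pou5f1 and 5 Sox2 windows, against 10.6%. The active promoter class took in 2 Pou5f1 windows and no Sox2 window, against 2.87%. No member was in the repressed class, against 5.58%, and 2 Pou5f1 and 3 Sox2 windows had no flag, against 67.1%. The median GC content was 52.1% at Pou5f1, 47.6% at Sox2 and 46.2% over bound windows.

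**Figure D1:**
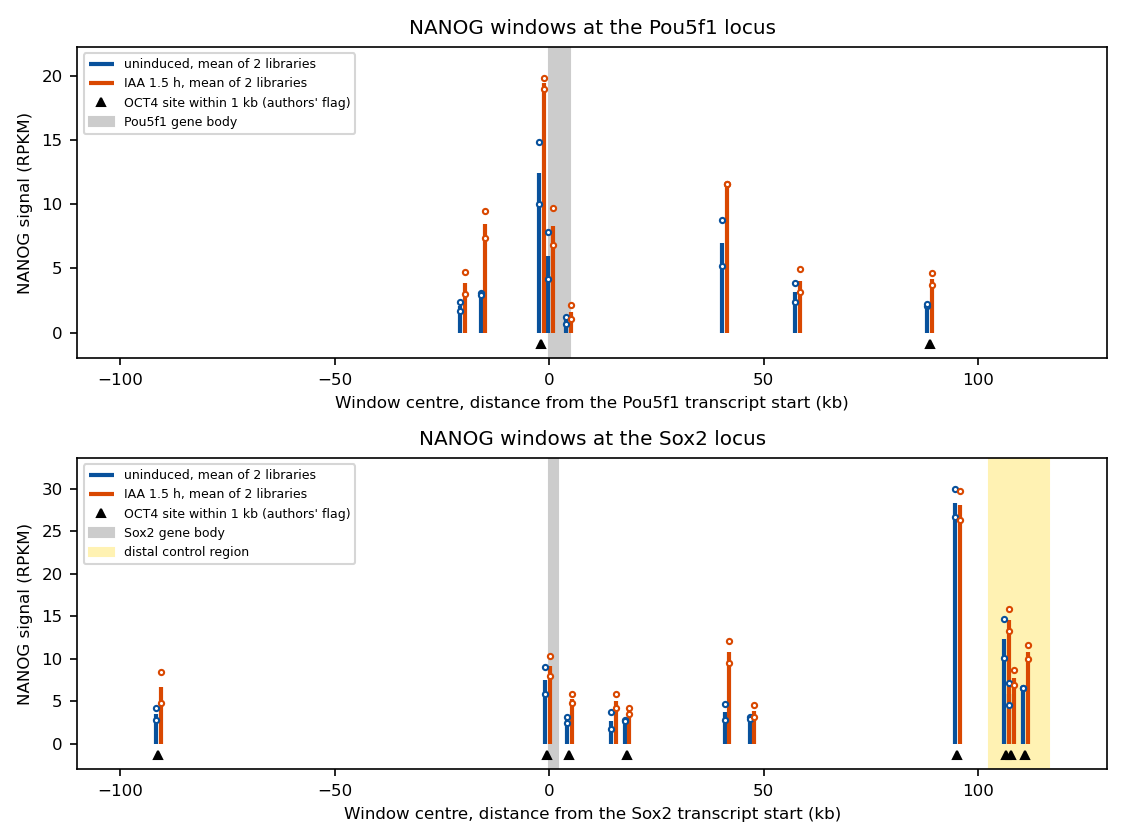
NANOG signal in RPKM (vertical axis) at the 8 Pou5f1 windows (top) and the 11 Sox2 windows (bottom) against the distance of the window centre from the transcript start in kb. Bars are means of 2 libraries, uninduced in blue and IAA in orange, drawn side by side, circles are the single libraries, triangles mark windows with an OCT4 site within 1 kb, grey is the gene body and yellow the interval of the Sox2 DCR. The highest bars are Pou5f1 -1.8 kb (12.5 and 19.4 RPKM) and Sox2 +95.1 kb (28.3 and 28.1 RPKM), the latter before the start of the yellow interval.

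Of the 19 members, 2 rose after IAA and 0 fell by limma on log2(RPKM + 0.1) with Benjamini-Hochberg adjustment over the 16608 bound windows at a threshold of 0.05. Over all bound windows this test called 15% higher and 0.337% lower, and the members' count was not above that background. In 12 members (5 at Pou5f1 and 7 at Sox2) each IAA library exceeded each uninduced one, as did 60.5% of all bound windows. The reverse, each IAA library below each uninduced one, was seen in 0 members and in 4.23% of bound windows. The log2 change had a median of 0.72 over the 8 Pou5f1 windows (range 0.35 to 1.44) and of 0.48 over the 11 Sox2 windows (range -0.01 to 1.55), beside 0.76 over all bound windows. Quantile normalization, which gives every library the same distribution, moved these medians to -0.0172, -0.22 and 0.04. With each library centred on its own median, a test of change relative to the other bound windows, 0 of 19 members passed the adjusted threshold in limma. An unadjusted p under 0.05 was found in 3 of them and in 2643 of the 16608 bound windows, so the members were not above that background. That test called 0.283% of bound windows higher and 1.19% lower.

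**Figure D2:**
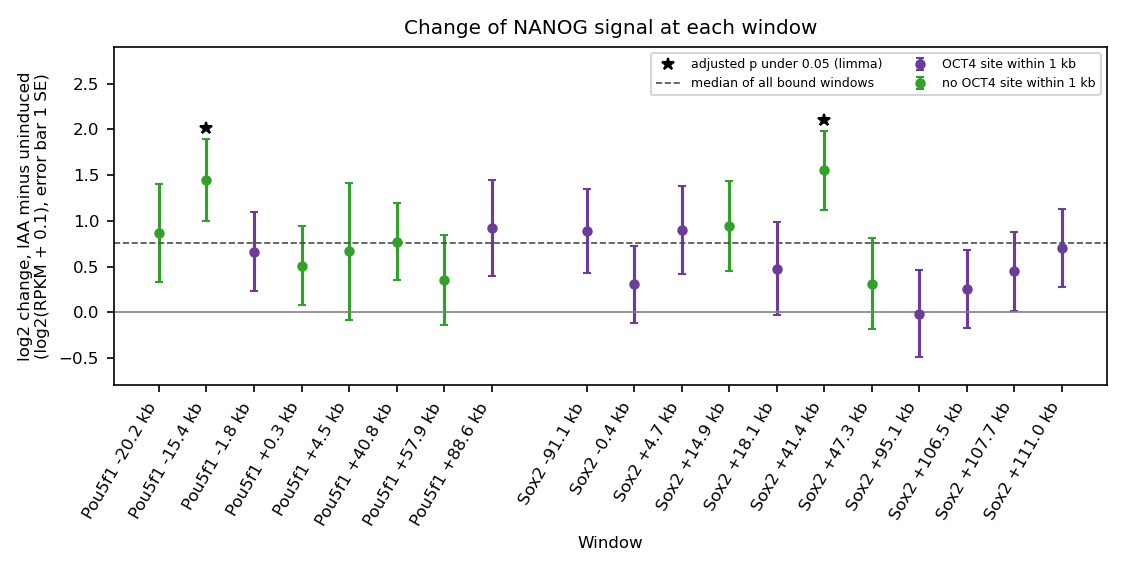
Log2 change of NANOG signal, IAA minus uninduced, on the log2(RPKM + 0.1) scale (vertical axis) for each window in genomic order. Points are limma estimates from 2 libraries per condition with bars of 1 SE, purple with and green without an OCT4 site within 1 kb, the dashed line is the median of all bound windows (0.76) and stars mark an adjusted p under 0.05. Only Pou5f1 -15.4 kb (1.44) and Sox2 +41.4 kb (1.55) carry a star, and Sox2 +95.1 kb sits at -0.01.

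At Pou5f1 the strongest window was the one at the distal enhancer, Pou5f1 -1.8 kb (chr17:35504036-35504386), which was intergenic, had an OCT4 site and was in both the active promoter and the active enhancer class. Its signal was 10.03 and 14.9 RPKM in uninduced replicates 1 and 2 (29 and 61 reads) and 19.9 and 19.0 RPKM in IAA replicates 1 and 2 (137 and 36 reads). Both IAA libraries were the higher, but the uninduced replicates also differed from each other by about as much as the second of them did from the IAA libraries. Its log2 change of 0.66 ± 0.44 (SE) did not pass the test (limma, adjusted p = 0.261), and relative to all bound windows the change was -0.03. By ChIP-qPCR, a separate assay, the paper reported more NANOG at this enhancer after OCT4 depletion. It did so in these ESCs and in induced pluripotent stem cells with the same fusion. The window stood at the 97.9th percentile of bound windows by mean signal.

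The Pou5f1 window that rose lay farther upstream, at Pou5f1 -15.4 kb (chr17:35490396-35490746). It was intergenic, in the active enhancer class and without an OCT4 site. Signal there stood at 3.11 and 2.93 RPKM in the uninduced libraries (9 and 12 reads) and 7.40 and 9.49 RPKM after IAA (51 and 18 reads). The uninduced libraries were alike and both IAA libraries lay well above them, a ratio of 2.80 between the condition means, and the log2 change was 1.44 with an SE of 0.45 (adjusted p = 0.0194 in limma). This change exceeded that of 86.6% of bound windows. Relative to all bound windows it was 0.74 (limma adjusted p = 0.277). The call was lost without IAA replicate 1 (adjusted p = 0.299) and without IAA replicate 2 (adjusted p = 0.547), settings under which limma called no bound window at all while 2374 and 1434 of them had an unadjusted p under 0.05. It was also lost after quantile normalization (limma adjusted p = 0.290), where limma called 0 bound windows higher and 1 lower. Without the variance trend it was lost too (limma adjusted p = 0.0821), and 157 of the 16608 bound windows were called higher. Pou5f1 -20.2 kb (chr17:35485658-35486008), its neighbour, was also intergenic and in the active enhancer class. Signal was 2.42 and 1.71 RPKM before (7 reads each) and 3.05 and 4.74 RPKM after IAA (21 and 9 reads), with both IAA libraries the higher and a log2 change of 0.87 ± 0.54 that did not pass (limma adjusted p = 0.229).

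The next 2 windows lay in Pou5f1 exons. Pou5f1 +0.3 kb (chr17:35506110-35506460), in the active promoter and active enhancer classes, lay entirely in coding sequence (351 coding bases). Its values were 4.15 and 7.81 RPKM in uninduced cells (12 and 32 reads) and 9.72 and 6.85 RPKM after IAA (67 and 13 reads), so that the groups overlapped (log2 change 0.51 ± 0.43, limma adjusted p = 0.383). Pou5f1 +4.5 kb (chr17:35510307-35510657), in the active enhancer class, held 242 coding bases and also overlapped the predicted gene Gm19553. This weakest member had 0.692 and 1.22 RPKM before (2 and 5 reads) and 2.18 and 1.05 RPKM after IAA (15 and 2 reads), again with overlap (log2 change 0.66 ± 0.75, limma adjusted p = 0.525). Coding bases of this gene are also carried by both Oct4 transgenes of the line, and reads from the transgenes and from the endogenous locus cannot be told apart in these windows.

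Downstream of Pou5f1 the strongest window was Pou5f1 +40.8 kb (chr17:35546614-35546964), intergenic, without any flag and nearest to the start of Cdsn, a gene of the skin barrier. It had 5.19 and 8.79 RPKM in uninduced cells (15 and 36 reads) and 11.6 RPKM in each IAA library (80 and 22 reads). Both IAA libraries lay above both uninduced ones, with a log2 change of 0.77 ± 0.42 (limma adjusted p = 0.178), close to the median of all bound windows. Pou5f1 +57.9 kb (chr17:35563760-35564110), intergenic and without a flag, lay largely in repeats, with 258 of its 351 bases soft-masked. It had 2.42 and 3.90 RPKM before (7 and 16 reads) and 4.93 and 3.16 RPKM after IAA (34 and 6 reads), and the groups overlapped (log2 change 0.35 ± 0.49, limma adjusted p = 0.616). Pou5f1 +88.6 kb (chr17:35594485-35594835), intergenic, was the other Pou5f1 window with an OCT4 site. Its signal was 2.08 and 2.20 RPKM before (6 and 9 reads) and 4.64 and 3.69 RPKM after IAA (32 and 7 reads), and although both IAA libraries were the higher the log2 change of 0.92 ± 0.52 did not pass (limma adjusted p = 0.191).

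**Figure D3:**
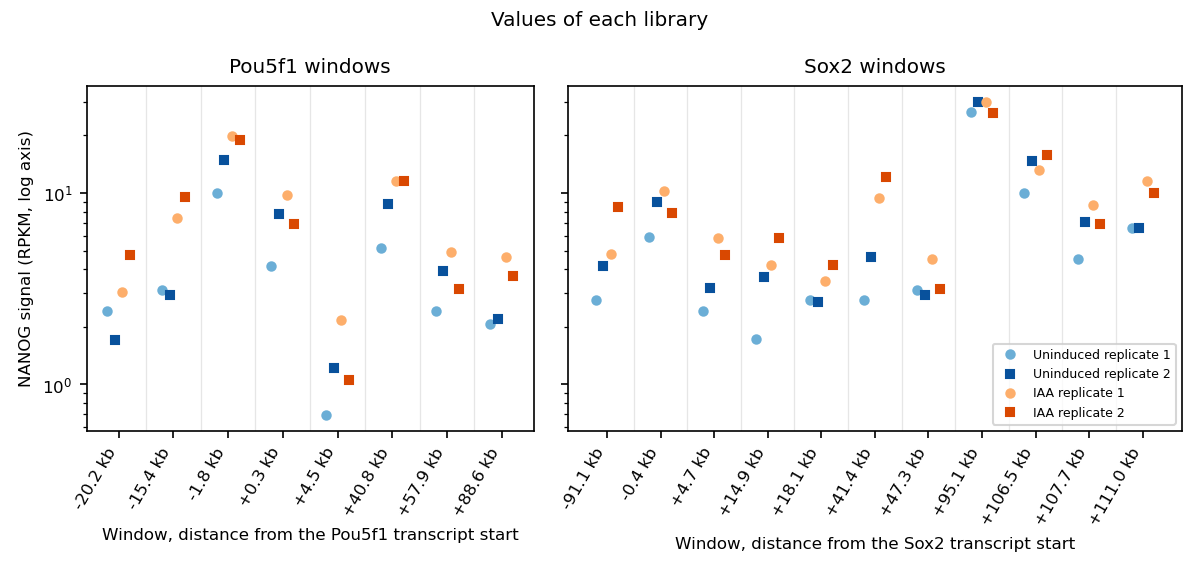
NANOG signal in RPKM on a log axis (vertical) for each window in each library, Pou5f1 on the left and Sox2 on the right, with windows in genomic order. Blue symbols are uninduced and orange symbols IAA, circles replicate 1 and squares replicate 2. Orange lies above both blue symbols in 12 of the 19 windows, with the clearest gaps at Pou5f1 -15.4 kb (3.11 and 2.93 against 7.40 and 9.49 RPKM) and Sox2 +41.4 kb (2.77 and 4.64 against 9.43 and 12.1 RPKM), while at Sox2 +95.1 kb the 4 symbols lie together between 26.3 and 30.02 RPKM.

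At Sox2 the strongest window was far downstream of the gene. Sox2 +95.1 kb (chr3:34745317-34745667), intergenic, with an OCT4 site and in the active enhancer class, lay before the interval given for the DCR (34753000 to 34767000). Its mean signal ranked 51 of 16608 bound windows. It stood at 26.6 and 30.02 RPKM in uninduced cells (77 and 123 reads) and 29.7 and 26.3 RPKM after IAA (205 and 50 reads). The groups covered the same range, whereas the strongest 1% of bound windows (167 windows) had a median change of 0.75. The log2 difference at Sox2 +95.1 kb, -0.01 ± 0.48 (SE), was the lowest of the 19 members (limma adjusted p = 0.985). Relative to all bound windows the change was -0.71 ± 0.20 (SE), which had an unadjusted p of 0.00314 in limma and an adjusted p of 0.0971. Among the 1037 bound windows that shared its OCT4 site and enhancer class, it stood at the 21.1 percentile of change.

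Within the DCR lay 3 windows, each intergenic, with an OCT4 site and in the active enhancer class. Sox2 +106.5 kb (chr3:34756711-34757061), the strongest of them, had 10.03 and 14.6 RPKM before (29 and 60 reads) and 13.2 and 15.8 RPKM after IAA (91 and 30 reads), so that IAA replicate 1 fell between the uninduced libraries. The log2 change was 0.25 ± 0.43 (limma adjusted p = 0.683). Sox2 +107.7 kb (chr3:34757909-34758259) had 4.50 and 7.08 RPKM before (13 and 29 reads) and 8.71 and 6.85 RPKM after IAA (60 and 13 reads), again with overlap (log2 change 0.45 ± 0.43, limma adjusted p = 0.452). At Sox2 +111.0 kb (chr3:34761274-34761624) the uninduced libraries were nearly equal at 6.57 and 6.59 RPKM (19 and 27 reads) and the IAA libraries stood above them at 11.6 and 10.01 RPKM (80 and 19 reads). Its log2 change of 0.70 ± 0.42 did not pass the test (limma adjusted p = 0.219) and was level with all bound windows (0.01 relative to them).

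Summed over the 3 DCR windows the libraries had 61, 116, 231 and 62 reads in the order uninduced replicates 1 and 2 and IAA replicates 1 and 2. Their summed signal had a mean of 24.7 ± 5.10 RPKM before and of 33.1 ± 0.598 RPKM after IAA (SD, n = 2), which is 0.44 on the log2 scale with a pooled SD between replicates of 0.213. An exact two-sided permutation test gave p = 0.33, the smallest that 2 libraries against 2 allow.

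The Sox2 window that rose was a weaker one between the gene and the DCR. Sox2 +41.4 kb (chr3:34691634-34691984) was intergenic and had no flag, neither an OCT4 site nor a chromatin class. Signal was 2.77 and 4.64 RPKM in uninduced cells (8 and 19 reads) and 9.43 and 12.1 RPKM after IAA (65 and 23 reads). Both IAA libraries lay far above both uninduced ones, a ratio of 2.91 between the condition means, and the log2 change was 1.55 with an SE of 0.43 (adjusted p = 0.0102 in limma), the largest of the 19 and above that of 89.9% of bound windows. Relative to all bound windows the change was 0.85 (limma adjusted p = 0.150). The settings that took the call from Pou5f1 -15.4 kb, with the counts over all bound windows given there, did so here too. Sox2 +41.4 kb lost it without IAA replicate 1 (log2 change 1.73) and without IAA replicate 2 (log2 change 1.37). It also lost the call after quantile normalization (limma adjusted p = 0.206) and without the variance trend (limma adjusted p = 0.0758). Its neighbour Sox2 +47.3 kb (chr3:34697506-34697856), likewise intergenic and without a flag, had 3.11 and 2.93 RPKM before (9 and 12 reads) and 4.50 and 3.16 RPKM after IAA (31 and 6 reads). There the lower IAA value exceeded the higher uninduced one by less than the worth of 1 read in either library, and the log2 change was 0.31 ± 0.50 (limma adjusted p = 0.662).

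Around the gene itself, Sox2 -0.4 kb (chr3:34649819-34650169) lay just upstream of the Sox2 start, in an intron of Sox2ot, with an OCT4 site and in the active enhancer class. It had 5.88 and 9.03 RPKM before (17 and 37 reads) and 10.3 and 7.90 RPKM after IAA (71 and 15 reads), and the groups overlapped (log2 change 0.30 ± 0.42, limma adjusted p = 0.613). Sox2 +4.7 kb (chr3:34654895-34655245), intronic in Sox2ot and with an OCT4 site, had 2.42 and 3.17 RPKM before (7 and 13 reads) and 5.80 and 4.74 RPKM after IAA (40 and 9 reads). Here both IAA libraries were the higher, with a log2 change of 0.90 ± 0.48 that did not pass (limma adjusted p = 0.167).

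The other 3 Sox2 windows also lay in Sox2ot, and each had its IAA values above its uninduced ones without the change passing the test. Sox2 -91.1 kb (chr3:34559153-34559503), intronic and with an OCT4 site, had 2.77 and 4.15 RPKM before (8 and 17 reads) and 4.79 and 8.43 RPKM after IAA (33 and 16 reads), a log2 change of 0.89 ± 0.46 (limma adjusted p = 0.150). Sox2 +14.9 kb (chr3:34665181-34665531), exonic and without a flag, had 1.73 and 3.66 RPKM (5 and 15 reads) and then 4.21 and 5.80 RPKM (29 and 11 reads), a log2 change of 0.94 ± 0.49 (limma adjusted p = 0.156). Sox2 +18.1 kb (chr3:34668374-34668724), intronic and with an OCT4 site, had 2.77 and 2.68 RPKM (8 and 11 reads) and then 3.48 and 4.22 RPKM (24 and 8 reads), a log2 change of 0.48 ± 0.51 (limma adjusted p = 0.497).

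How far the calls depended on single libraries was most visible for uninduced replicate 2. Without it limma called 8 of the 19 members higher, the 2 named above with Pou5f1 -1.8 kb, Pou5f1 +0.3 kb, Pou5f1 +40.8 kb, Sox2 -91.1 kb, Sox2 +4.7 kb and Sox2 +14.9 kb, and 6761 of all 16608 bound windows. Without uninduced replicate 1 it called 2 members and 1749 of all bound windows.

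Read by flag, the 10 members with an OCT4 site had a median log2 change of 0.57 and the 9 without one of 0.77, where all bound windows with and without an OCT4 site had 0.39 and 0.86. Neither of the 2 windows that rose had such a site, which was also so for 2230 of the 2493 bound windows called higher. The 5 active enhancer windows of Sox2 (Sox2 -0.4 kb, Sox2 +95.1 kb and the 3 of the DCR) had a median of 0.30 and the 5 of Pou5f1 one of 0.66, and 1037 bound windows with both an OCT4 site and the enhancer class had 0.49. All of these Sox2 windows had an OCT4 site, but of the Pou5f1 ones only Pou5f1 -1.8 kb did, so the sets differ in that flag. These medians describe few windows each and were not tested.

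The locus totals pooled more reads than any window. The Pou5f1 totals, and the Pou5f1 shares and the ratio given below, include Pou5f1 +0.3 kb and Pou5f1 +4.5 kb. Reads of the Oct4 transgenes cannot be told apart there, and no sum was taken without these windows. Over the 8 Pou5f1 windows the summed signal came to 30.1 and 43.4 RPKM before IAA (87 and 178 reads) and 63.4 and 59.5 RPKM after IAA (437 and 113 reads). Both IAA libraries were above both uninduced ones, with means of 36.8 ± 9.44 and 61.5 ± 2.73 RPKM (SD, n = 2), a log2 change of 0.77 that exceeded the pooled SD of 0.269 (exact two-sided permutation test, p = 0.33, the smallest possible). Over the 11 Sox2 windows it was 69.2 and 88.6 RPKM (200 and 363 reads) and then 105.8 and 105.4 RPKM (729 and 200 reads). The means were 78.9 ± 13.7 and 105.6 ± 0.270 RPKM (SD, n = 2), a log2 change of 0.43 against a pooled SD of 0.178 (exact permutation test, p = 0.33). Windows within 50 kb of the gene gave a larger Sox2 change of 0.78, level with the 0.78 of Pou5f1 over that distance, and without Sox2 +95.1 kb the change was 0.64. Each uninduced library weighed on both totals. They changed by 0.50 at Pou5f1 and 0.25 at Sox2 without uninduced replicate 1, and by 1.03 and 0.61 without uninduced replicate 2. The sum over all bound windows changed by 0.72.

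The totals were also taken as a share of the reads in all bound windows. Pou5f1 took 658.4 and 668.9 of each 1000000 such reads before and 730.3 and 644.4 after IAA, with one IAA library above and the other below both uninduced ones (log2 change 0.05, exact permutation test, p = 1). Sox2 took 1513 and 1364 of each 1000000 before and 1218 and 1141 after IAA, and here both IAA libraries were below both uninduced libraries. That difference of -0.29 on the log2 scale exceeded the pooled SD of 0.0888 (exact permutation test, p = 0.33). Without Sox2 +95.1 kb it was -0.08.

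A ratio within a library does not depend on how the library was scaled. The log2 ratio of the Sox2 to the Pou5f1 total stood at 1.20 and 1.03 before IAA and at 0.74 and 0.82 with it. The IAA values were both the lower, by -0.33 in the mean, which exceeded the pooled SD of 0.0964, while the exact two-sided permutation test could give no less than its p of 0.33. The size of the difference depended on which windows were summed. It was -0.18 without the strongest window of each locus. Over windows within 50 kb of either gene it was -0.00818 (exact permutation test, p = 1). That distance leaves out Pou5f1 +57.9 kb, Pou5f1 +88.6 kb, Sox2 -91.1 kb, Sox2 +95.1 kb and the DCR.

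**Figure D4:**
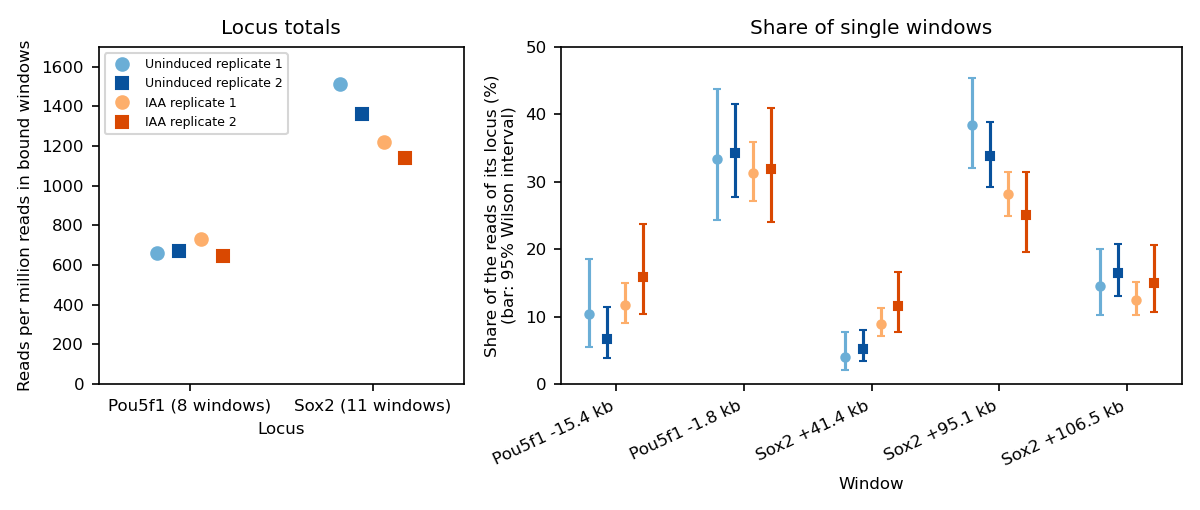
Left, reads in the windows of each locus scaled to 1000000 reads in all bound windows (vertical axis, from 0) for each library. Right, the share of the reads of its locus, in percent, taken by each of 5 windows, with 95% Wilson intervals that cover counting error only. Blue symbols are uninduced and orange IAA, circles replicate 1 and squares replicate 2. The Sox2 total is lower in both IAA libraries (1218 and 1141) than in both uninduced ones (1513 and 1364), and so is the share of Sox2 +95.1 kb (28.1% and 25% against 38.5% and 33.9%).

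Within Sox2 the share of locus reads differed most between the conditions at Sox2 +95.1 kb and next most at Sox2 +41.4 kb. Sox2 +95.1 kb took 38.5% and 33.9% of the locus reads in uninduced replicates 1 and 2, with 95% Wilson intervals of 32.0% to 45.4% and of 29.2% to 38.9%. In IAA replicates 1 and 2 it took 28.1% (interval 24.98% to 31.5%) and 25% (interval 19.5% to 31.4%), intervals that reflect counting error and nothing else. Each IAA share lay below each uninduced share. The means were 36.2% ± 3.26 and 26.6% ± 2.21 (SD, n = 2), a change of -9.63 percentage points that was larger than the spread between replicates (exact two-sided permutation test, p = 0.33). Sox2 +41.4 kb took 4% and 5.23% before and 8.92% and 11.5% after IAA, with both IAA libraries the higher. These are the same reads on which its call rests.

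Within Pou5f1 the distal enhancer window took 33.3% and 34.3% of the locus reads in uninduced cells and 31.4% and 31.9% after IAA, a change of -2.20 percentage points (exact permutation test, p = 0.33), and each of these shares lay inside the Wilson interval of every other library. Pou5f1 -15.4 kb took 10.3% and 6.74% before and 11.7% and 15.9% after IAA.

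The bound windows elsewhere whose 4 values were most like those of the strongest members were found by Euclidean distance of log2(RPKM + 0.1) over the 4 libraries. For Pou5f1 -1.8 kb they lay near 4930503B20Rik (distance 0.122), Cd9 (0.148) and Sorl1 (0.178). The nearest to Sox2 +95.1 kb were 2 windows in introns of Sfi1 (0.342 and 0.436) and one near Gm1335 (0.456).

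Other genes of the naive pluripotency network give the setting for these values. Of 18 such genes, 17 had a bound window within 100 kb, and the strongest window of each made 16 distinct windows, since Nanog and Dppa3 shared one. By limma 2 of these rose and 0 fell, where 15% of all bound windows rose, and the median log2 change over the 17 genes was 0.80 beside 0.76 over all bound windows. The window near Fgf4, a growth factor gene whose enhancer OCT4 and SOX2 bind, rose most (6.92 and 8.30 RPKM before, 25.1 and 32.7 RPKM after IAA, log2 change 1.90, limma adjusted p = 0.00207), and that near Klf5, a zinc-finger factor of self-renewal, rose by 1.14 (limma adjusted p = 0.0478). The lowest was that of Tfcp2l1, another naive factor, at -0.57 (limma adjusted p = 0.330). The strongest Sox2 window, at -0.01, was lower than all of the list except Tfcp2l1, whereas that of Pou5f1, at 0.66, lay within their range.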

How the data were processed

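NANOG ChIP-seq was measured in 4 libraries, 2 from uninduced cells and 2 from cells after 1.5 h of IAA, as the labels state. The authors, by their methods, mapped reads to GRCm38/mm10 (Bowtie2 2.3.4.3 in the submitters' processing notes), called peaks with MACS2 on both conditions pooled, and deposited RPKM per window. All deposited RPKM values were whole multiples of the smallest in their library (100% within 0.0001), from which reads were recovered. A window with 0 reads cannot be seen in these values. A further deposited table held the authors' condition means (RPKM) and true or false flags.

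Changes were fitted with limma 3.58.1 (R 4.3.3, two-sided, with the variance moderated along a trend) and Benjamini-Hochberg adjustment on log2(RPKM + 0.1) over bound windows, which shrinks the changes of weak windows. The prior degrees of freedom of the main fit were infinite, so that each window took the variance of the trend at its level. Locus sums, ratios and shares were compared by exact permutation over libraries. Where leaving out a library left 1 in a group, the lone library was assumed to vary like the other group. Positions were matched to GENCODE release 21 and RefSeq GRCm38.p6, with 1-based coordinates, using Python 3.11.15, pandas 2.3.3, scipy 1.17.1 and pysam 0.24.0. On simulated reads limma found 177 (88.5%) of 200 windows given a 4-fold change and made 7 false calls among the rest of the 16608. The changed windows were drawn from those above a read limit, and the simulated libraries had no shift between conditions over all windows. These rates therefore do not carry over to weak windows, to smaller changes or to libraries that differ as these do. Members, gene list, motifs and tests were chosen with earlier results of these data known. By the rule for named windows, every member was named. Alternatives were pseudocounts of 0.01 and 0.5, no threshold or one of 2 RPKM, quantile normalization, centring on the library median, no variance trend, voom on recovered reads, a replicate block, other sums of windows, and leaving out each library. Those of the centred test were chosen after seeing the data. The correlation of replicate 1 minus replicate 2 between the conditions was 0.00546, so the replicate numbers were not taken to pair the libraries.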

Additional observations from a re-analysis of the deposited data

How the results depend on the processing

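Of 246 pairs of a window and an alternative, 207 kept the direction and the side of the threshold, 23 changed sign, 10 lost and 6 gained a call. Between-library scaling mattered most. Quantile normalization moved the median change to -0.0172 at Pou5f1 and -0.22 at Sox2. It left 0 member calls, and of the 16608 bound windows it called 0 higher and 1 lower. It gave -0.0844, -0.15, -0.36 and -0.25 for Pou5f1 -1.8, +0.3, +4.5 and +57.9 kb. For Sox2 -0.4, +18.1, +47.3, +106.5, +107.7 and +111.0 kb it gave -0.38, -0.24, -0.33, -0.48, -0.22 and -0.00694. Centring each library also left 0 member calls, with 47 of all bound windows called higher and 198 lower. It gave -0.0344, -0.19, -0.0334 and -0.35 for the same 4 Pou5f1 windows. For Sox2 -0.4, +18.1, +47.3, +106.5 and +107.7 kb it gave -0.39, -0.22, -0.39, -0.45 and -0.25. Relative to reads in all bound windows the Sox2 total was -0.29. Without a variance trend 0 members were called, and of all bound windows 157 were called higher and 0 lower. Voom on recovered reads called 2 members, and of all bound windows 2489 higher and 55 lower. Leaving out one library gave 0 to 8 member calls, a Pou5f1 median of 0.39 to 0.96, totals of 0.50 to 1.03 at Pou5f1 and 0.25 to 0.61 at Sox2, a difference between these totals of -0.42 to -0.25, and the changes of Sox2 -0.4, +95.1 and +106.5 kb ranged from -0.00065 to 0.61, -0.10 to 0.0730 and -0.0190 to 0.52. The cause of these shifts was not tested.

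With the replicate number as a block, limma called the same 2 windows, and of all bound windows 2655 higher and 52 lower. In the centred test with this block it called 1 member, Sox2 +95.1 kb (-0.71, limma adjusted p = 0.00114). Under the other alternatives that kept every library its adjusted p in limma was 0.0969 to 0.429. The number of bound windows called in the centred test with the block is not given here. Pou5f1 +4.5 kb gave no value at the threshold of 2 RPKM, which it did not reach. A median of 6 to 27 reads per bound window limits what a single window can show.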
